A study of Mus musculus with 18 samples.

Results

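The mitochondrially encoded transcripts are the RNAs copied from the mitochondrial genome itself. They were taken as all genes of the count tables whose symbol starts with mt-, which gave 37 of 56953 genes: 13 protein-coding, 2 ribosomal RNA and 22 transfer RNA genes. The study measured RNA by sequencing in natural killer (NK) cells, innate lymphocytes with cytotoxic function, from mouse spleen. The question of its design was what the loss of the transcription factors Hif1a and Ahr does to these cells in low oxygen. Hif1a is the oxygen-sensitive subunit of hypoxia-inducible factor 1, and Ahr is the aryl hydrocarbon receptor, a ligand-activated factor. There were 6 groups of 3 biological replicates, 18 libraries in all: Ncr1 iCre with Hif1a fl/fl (Hif1a KO) and Hif1a fl/fl without Cre (Hif1a flox), Ncr1 iCre with Ahr fl/fl (Ahr KO) and Ahr fl/fl without Cre (Ahr flox), and Ncr1 iCre with both floxed genes (Hif1a Ahr KO) and both floxed genes without Cre (Hif1a Ahr flox). All groups shared the same culture, 7 days of hypoxia (1% O2), with recombinant human IL-2 at 1700 U/ml. The Cre is driven from Ncr1, the gene of the NK cell receptor NKp46, and no group carried Cre without floxed genes, so an effect of Cre cannot be told apart from an effect of the deletions. The age and sex of the mice were not given in the sources used here.

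Mitochondrial DNA is a small circle copied in many molecules per cell. It is transcribed from both strands into long precursors, and the transfer RNAs that lie between most of the other genes are cut out, which frees the messenger and ribosomal RNAs. The messengers encode core subunits of respiratory complexes I, III and IV and of ATP synthase, and the ribosomal and transfer RNAs serve their translation inside the organelle. Hif1a is known for turning cells from respiration towards glycolysis in low oxygen.

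Several of these genes have near-identical copies in the nuclear genome, and the sequences below show how little separates them. Between mt-Nd3, a subunit of complex I, and its copy Gm28438 on mouse chromosome 1, 344 of 345 compared bases were the same. The difference is T3C, counted from 1 at the 5′ end of the mt-Nd3 transcript, with the mt-Nd3 base first, and the copy lacks the final stop codon. The first bases of both and their last bases are given 5′ to 3′ from the GENCODE M21 transcripts, with capitals for what differs.
mt-Nd3, start: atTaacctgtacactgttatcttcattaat
Gm28438, start: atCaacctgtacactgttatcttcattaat
mt-Nd3, end: acacaaaaaggattagaatgaacagagTAA
Gm28438, end: acacaaaaaggattagaatgaacagag
Gm28661, Gm28437 and Gm10925 held no difference from mt-Co2, mt-Co3 and mt-Atp6 over 681, 783 and 678 compared bases. The same held for Gm10222 and mt-Nd4l over 294 bases and for Gm28439 and mt-Nd4 over 876 bases, and these copies also lie on chromosome 1. Gm10222 and Gm28439 were listed at 0 counts in all 18 libraries, so mt-Nd4l and mt-Nd4 held all counts of their pairs. For mt-Nd3, mt-Co2, mt-Co3, mt-Atp6 and mt-Co1 the deposited estimates were divided between gene and copies, and their changes are given below with and without the copies.

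Mitochondrial genes also touch or overlap each other. The 43 bases that end mt-Atp8 and begin mt-Atp6 are shown because reads inside them fit both genes of ATP synthase, with the start codon of mt-Atp6 and the stop codon of mt-Atp8 in capitals.
mt-Atp8 and mt-Atp6, shared: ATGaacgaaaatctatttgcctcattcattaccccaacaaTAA
The overlap was 7 bases for mt-Nd4l and mt-Nd4 and 14 bases for mt-Nd5 and mt-Nd6, which lie on opposite strands. The library protocol was strand-specific per the labels, but the strand setting of the counting was not given in the sources used here. The 3 transfer RNAs with enough counts to be tested are shown whole, with the anticodon in capitals: mt-Tl1 for leucine, mt-Tc for cysteine and mt-Tp for proline.
mt-Tl1: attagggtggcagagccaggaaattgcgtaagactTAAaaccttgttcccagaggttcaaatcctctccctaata
mt-Tc: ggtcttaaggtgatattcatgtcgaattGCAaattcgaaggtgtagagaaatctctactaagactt
mt-Tp: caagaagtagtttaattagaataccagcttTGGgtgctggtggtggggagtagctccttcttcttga

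Libraries held 54420649 to 55732940 counts, with 24103 to 25669 genes above 0. All 12 NK cell markers passed the filter on low counts, and their summed level was 14780 to 30850 CPM, the unit of counts per library size scaled by TMM factors. The 11 T cell markers, mostly Trbc1 and Trbc2, had a lower sum in every KO group than in its flox group: 402.8 to 425.0 CPM in Hif1a KO and 499.3 to 551.2 CPM in Hif1a flox, 465.9 to 497.5 CPM in Ahr KO and 527.4 to 554.5 CPM in Ahr flox, and 433.4 to 460.1 CPM in Hif1a Ahr KO and 533.9 to 578.1 CPM in Hif1a Ahr flox. The median log2 change over these 11 was -0.27 in Hif1a KO, 0.72 in Ahr KO and 0.0005 in Hif1a Ahr KO. Called higher and lower were 0 and 4 in Hif1a KO, 0 and 2 in Ahr KO, and 1 and 2 in Hif1a Ahr KO. In the Ahr and Hif1a Ahr lines the lower sum thus does not describe the middle marker. Cd5 averaged at most 0.27 CPM in any group. Markers of B cells, nearly all Ighm, summed to 99.4 to 124.7 CPM in Hif1a Ahr KO and 52.5 to 65.9 CPM in Hif1a Ahr flox, 96.6 to 129.3 CPM in Ahr KO and 76.7 to 87.5 CPM in Ahr flox, and 74.9 to 101.0 CPM in Hif1a KO and 69.5 to 84.2 CPM in Hif1a flox. Those of macrophages and monocytes summed to 51.9 to 55.8 CPM in Hif1a KO and 34.3 to 42.9 CPM in Hif1a flox. Of the 4 tested there, however, 1 was called higher and 3 lower, with a median log2 change of -2.57. In the Ahr line their sums were 24.1 to 30.2 CPM in KO and 31.45 to 55.4 CPM in flox, with 0 called higher and 1 lower. The sums overlapped between KO and flox in the Hif1a Ahr line, with 0 called higher and 2 lower. Neutrophil markers summed to 0.09 to 0.14 CPM in Hif1a KO and 1.12 to 4.88 CPM in Hif1a flox, and to 0.16 to 0.36 CPM in Hif1a Ahr KO and 0.91 to 5.03 CPM in Hif1a Ahr flox. Erythroid markers stayed at or under 0.53 CPM in every library. The NK marker sum was also lower with Hif1a deletion alone, 14780 to 16690 CPM in Hif1a KO and 21000 to 25350 CPM in Hif1a flox, although 6 of the 12 markers were called higher and 4 lower there. The part of these markers in the results was not tested. Hif1a counts were higher in both groups that carry its deletion, at 180 ± 32.0 CPM in Hif1a KO and 60.3 ± 4.28 CPM in Hif1a flox (SD, n = 3 each). Ahr averaged 92.1 ± 4.40 CPM in Ahr KO and 76.4 ± 2.35 CPM in Ahr flox. Gene-level counts thus did not show the deletions, and the libraries are described by their labels. Ncr1, from which the Cre is driven, rose by 0.92 in Hif1a KO, 0.97 in Ahr KO and 1.06 in Hif1a Ahr KO on the log2 scale.

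The protein-coding mitochondrial genes took a larger share of all counts in Hif1a KO and Hif1a Ahr KO cells than in the flox cells of the same line. They held 3.06%, 2.97% and 3.23% of counts in the 3 Hif1a KO libraries and 2.04%, 1.58% and 1.62% in the Hif1a flox libraries, a ratio of means of 1.77. They held 3.27%, 4.14% and 4.09% in Hif1a Ahr KO and 1.84%, 1.79% and 1.67% in Hif1a Ahr flox, a ratio of 2.17. In neither line did the groups overlap. For Ahr the shares were 1.93%, 2.495% and 2.12% in Ahr KO and 1.72%, 2.05% and 1.82% in Ahr flox, a ratio of 1.17, and the groups overlapped. The 3 flox groups lay close together, at 1.75 ± 0.26% for Hif1a, 1.86 ± 0.17% for Ahr and 1.77 ± 0.09% for Hif1a Ahr (SD, n = 3 each). In bulk RNA, more cells with a transcript and more of it per cell cannot be told apart. A share is also relative: taken over the counts outside the mitochondrial genes, the ratio of KO over flox was 1.79 for Hif1a, 1.18 for Ahr and 2.21 for both.

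The ribosomal RNAs did not follow the messengers. Their share was 0.244%, 0.238% and 0.264% in Hif1a KO and 0.235%, 0.233% and 0.181% in Hif1a flox, with no overlap and a ratio of 1.15. It was 0.308%, 0.236% and 0.236% in Hif1a Ahr KO and 0.338%, 0.229% and 0.230% in Hif1a Ahr flox, a ratio of 0.98 with overlap. In Ahr KO it was 0.207%, 0.154% and 0.169%, against 0.249%, 0.190% and 0.244% in Ahr flox, a ratio of 0.775 with overlap. Transfer RNAs were scarce in these mRNA libraries, with 46 to 166 counts per library over all 22 genes. Mean shares were 0.00026% with Hif1a KO and 0.00011% with Hif1a flox, and 0.00028% in Hif1a Ahr KO and 0.00012% in Hif1a Ahr flox, without overlap in either line. For Ahr it was 0.00013% in Ahr KO and 0.00012% in Ahr flox, with overlap.

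**Figure D1:**
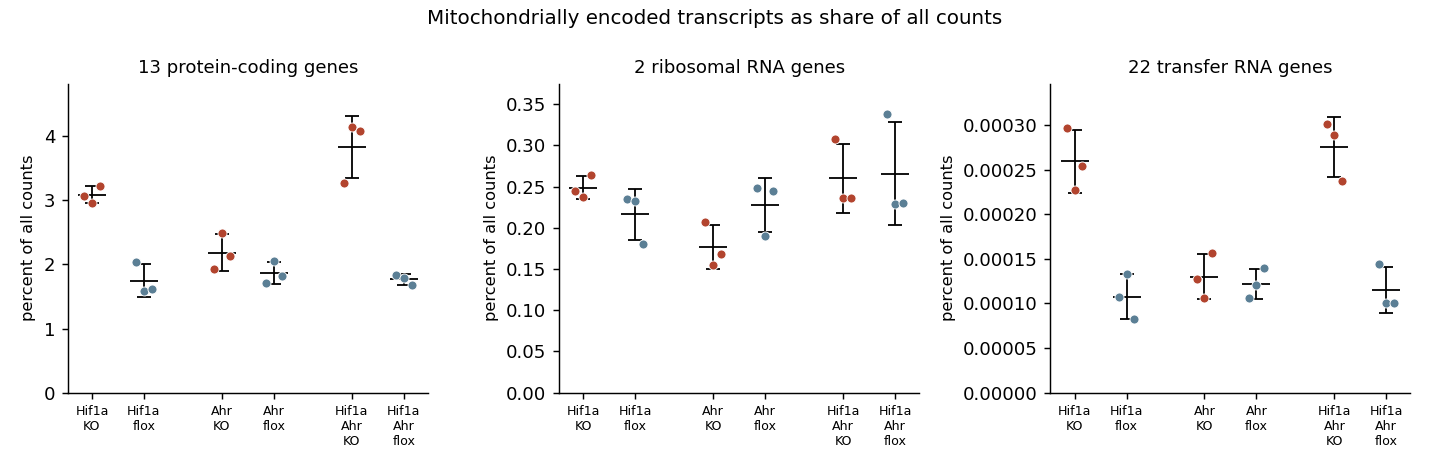
Share of all counts (percent) at the 13 protein-coding, 2 ribosomal RNA and 22 transfer RNA genes; each point is 1 library, and the dash and bar are the mean and SD of 3. The protein-coding share lay between 2.97% and 3.23% in Hif1a KO and between 3.27% and 4.14% in Hif1a Ahr KO, above the 1.58% to 2.04% of the flox libraries in these lines, while the ribosomal share of KO and flox was separated only in the Hif1a line, at 0.238% or more in KO and 0.235% or less in flox.

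Gene by gene, all 13 protein-coding genes rose in Hif1a KO against Hif1a flox, by a median of 0.73 on the log2 scale (0.57 to 1.05). A gene is called, and said to have risen or fallen, at an adjusted p under 0.05 by edgeR's quasi-likelihood test with Benjamini-Hochberg adjustment over 16747 genes. Over all genes tested, 17.6% were called higher and 17.8% lower in this comparison, and the median change was -0.01. In 12 of the 13 genes, all but mt-Nd2, each KO library lay above each flox library, an arrangement found for 24.8% of all tested genes. Only 7 of the 13 were called whichever single library was left out: mt-Nd1, mt-Co1, mt-Co2, mt-Atp6, mt-Co3, mt-Nd4l and mt-Cytb. The count fell to 8 without Hif1a flox replicate 2 and to 7 without Hif1a flox replicate 3. In Hif1a Ahr KO against Hif1a Ahr flox, 12 of 13 rose, where 14.8% of all genes tested did, with a median over the 13 of 1.00 (0.50 to 1.69). Each KO library was above each flox library in 12 of the 13 genes, all but mt-Nd6, against 17.6% of all tested genes. Leaving out any single library kept 10 of these calls, the losses being mt-Nd2 and mt-Nd6 under 1 or more of the 6 omissions.

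In Ahr KO against Ahr flox none of the 13 was called, where 2.14% of all genes were called higher and 4.78% lower. At an unadjusted p under 0.05 there were 3, and DESeq2 and limma voom called 0. The changes ran from 0.03 for mt-Nd6 to 0.63 for mt-Atp8, with 1 gene, mt-Atp8, higher in each KO library than in each flox library, as were 13.8% of all tested genes. The labels give replicate numbers and state no pairing, but Ahr libraries of the same number met a correlation rule in these same counts. With the replicate number as a block, which rests on that inferred pairing, 3 protein-coding genes rose in Ahr KO: mt-Atp8 by 0.64 (adjusted p = 8.4e-04), mt-Cytb by 0.50 (0.00455) and mt-Co3 by 0.25 (0.0412). The same fit placed mt-Rnr1 lower in Ahr KO, at -0.39 (adjusted p = 0.00282).

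**Figure D2:**
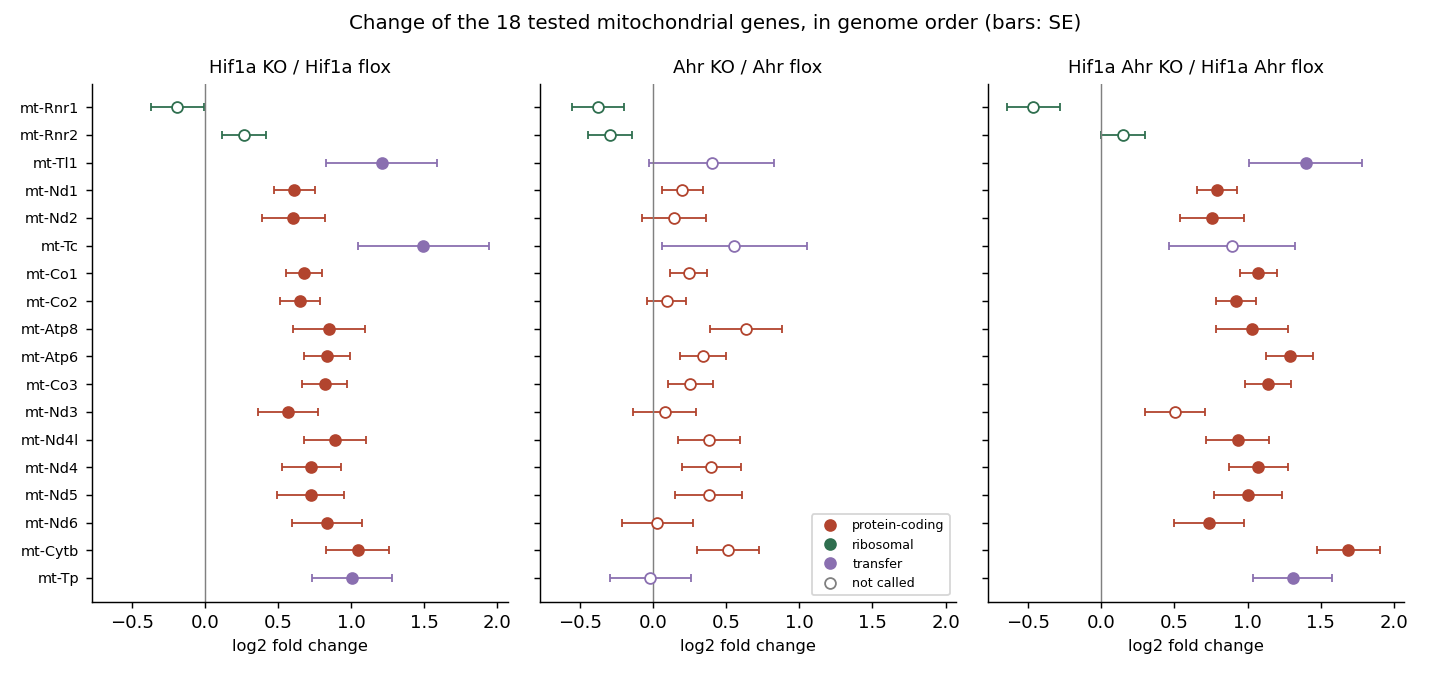
log2 fold change of KO over flox for the 18 tested mitochondrial genes in genome order, with bars of 1 standard error from the edgeR fit; filled points passed an adjusted p of 0.05. All 13 protein-coding genes are filled for Hif1a KO and 12 for Hif1a Ahr KO, with mt-Cytb farthest right among them at 1.05 and 1.69, while the ribosomal genes lie near or left of 0.

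Complex I has 7 mitochondrially encoded subunits. mt-Nd1, its most abundant one here per length, had 3103, 2778 and 3136 CPM in Hif1a KO, against 2428, 1806 and 1668 CPM in Hif1a flox, and rose by 0.61 ± 0.14 on the log2 scale (SE, adjusted p = 0.0022). In Hif1a Ahr KO it had 3671, 3831 and 3694 CPM, against 2272, 2062 and 2136 CPM in Hif1a Ahr flox, and rose by 0.79 ± 0.14 (adjusted p = 3.1e-04). No nuclear transcript of GENCODE M21 shares a 31-base word with mt-Nd1, so no copy of this gene was found there. The annotation behind the deposited counts was not given. mt-Nd4 and mt-Nd5 rose by 0.73 ± 0.20 and 0.72 ± 0.23 in Hif1a KO and by 1.07 ± 0.20 and 1.00 ± 0.23 in Hif1a Ahr KO. Flox replicate 1 of the Hif1a line stood nearest to the KO libraries: mt-Nd5 had 1290, 1402 and 1424 CPM in Hif1a KO, against 1177, 631 and 685 CPM in Hif1a flox. mt-Nd2 was the gene where these groups met, with 1557, 1420 and 1691 CPM in Hif1a KO and 1423, 874 and 775 CPM in Hif1a flox. mt-Nd4l rose by 0.89 ± 0.21 in Hif1a KO and by 0.93 ± 0.21 in Hif1a Ahr KO.

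mt-Nd6 is the only protein-coding gene on the other strand, and it was by far the scarcest per length. It averaged 30.6 CPM per kilobase over the 18 libraries (16.1 to 60.2), while its neighbour mt-Nd5 averaged 604 CPM per kilobase. It had 31.2, 25.1 and 21.6 CPM in Hif1a KO, against 15.3, 16.1 and 12.3 CPM in Hif1a flox, and rose by 0.83 ± 0.24 (adjusted p = 0.0129). In Hif1a Ahr KO it had 30.4, 16.1 and 17.1 CPM, against 16.3, 9.92 and 11.9 CPM in Hif1a Ahr flox, with replicate 1 highest in both groups, and rose by 0.74 ± 0.24 (adjusted p = 0.029). The light-strand messenger thus rose together with the heavy-strand ones in these lines, although reads of mt-Nd6 and of its antisense strand could only be separated by a strand setting that is not stated.

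mt-Cytb, the only mitochondrially encoded subunit of complex III, had the largest change of the 13 in both Hif1a-deleted lines when nuclear copies were left out. With the copies counted in, mt-Nd3 changed more in Hif1a KO, by 1.14 beside 1.05 for mt-Cytb. mt-Cytb had 2537, 1899 and 2318 CPM in Hif1a KO, against 1415, 903 and 956 CPM in Hif1a flox, a rise of 1.05 ± 0.21 (adjusted p = 0.00138). It had 2454, 3809 and 3276 CPM in Hif1a Ahr KO, against 959, 1017 and 981 CPM in Hif1a Ahr flox, a rise of 1.69 ± 0.22 (adjusted p = 3.0e-05). In Ahr KO it had 1307, 2087 and 1540 CPM, against 956, 1412 and 1098 CPM in Ahr flox, a difference of 0.51 ± 0.21 that missed the threshold (adjusted p = 0.183). As a share of all protein-coding mitochondrial counts without copies, mt-Cytb stood at 7.61 ± 0.93% in Hif1a KO and 6.01 ± 0.56% in Hif1a flox, at 7.23 ± 0.58% in Ahr KO and 6.14 ± 0.42% in Ahr flox, and at 8.42 ± 0.89% in Hif1a Ahr KO and 5.54 ± 0.25% in Hif1a Ahr flox (SD, n = 3 each).

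Complex IV, cytochrome c oxidase, has 3 mitochondrially encoded subunits, and its catalytic core subunit mt-Co1 was the largest single item. Without the nuclear copies, mt-Co1 took 45.9 ± 0.75% of protein-coding mitochondrial counts in Hif1a KO and 47.4 ± 2.73% in Hif1a flox. It had 13260, 12810 and 14660 CPM in Hif1a KO, against 9557, 7365 and 8566 CPM in Hif1a flox, and rose by 0.68 ± 0.12 (adjusted p = 3.7e-04). It had 14400, 18230 and 18040 CPM in Hif1a Ahr KO, against 8048, 8695 and 7333 CPM in Hif1a Ahr flox, and rose by 1.07 ± 0.13 (adjusted p = 4.0e-06). In the Ahr line mt-Co1 had 9579, 11970 and 10150 CPM in Ahr KO and 8430, 10150 and 8228 CPM in Ahr flox, groups that overlapped. mt-Co3 rose by 0.82 ± 0.16 in Hif1a KO and by 1.14 ± 0.16 in Hif1a Ahr KO, and mt-Co2 by 0.65 ± 0.13 and 0.92 ± 0.14.

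ATP synthase has mt-Atp6, the subunit beside the proton path, and the small mt-Atp8. mt-Atp6 had 1826, 1824 and 2152 CPM in Hif1a KO, against 1277, 969 and 1004 CPM in Hif1a flox, and rose by 0.84 ± 0.16 (adjusted p = 6.0e-04). In Hif1a Ahr KO it had 2059, 3059 and 2974 CPM, against 1092, 1147 and 1075 CPM in Hif1a Ahr flox, and rose by 1.29 ± 0.16 (adjusted p = 1.2e-05). mt-Atp8 rose by 0.85 ± 0.25 and 1.03 ± 0.25. The makeup by complex moved less than the total: complex IV genes held 58.0 ± 0.99% of protein-coding mitochondrial counts in Hif1a KO and 59.4 ± 4.19% in Hif1a flox, and 57.8 ± 0.63% in Hif1a Ahr KO and 57.9 ± 1.27% in Hif1a Ahr flox. Complex I genes held 25.9 ± 1.66% in Hif1a Ahr KO and 29.7 ± 1.55% in Hif1a Ahr flox (SD, n = 3 each). These shares leave out the nuclear copies and depend on the split. With the copies counted in, mt-Co1 held 36.0 ± 1.43% in Hif1a KO and 38.5 ± 2.51% in Hif1a flox. mt-Co2 then held 18.2 ± 0.58% and 16.9 ± 0.40%.

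mt-Rnr1 and mt-Rnr2 are the small and large ribosomal RNAs of the organelle, the first genes of the heavy strand apart from transfer RNAs. mt-Rnr1 had 772, 762 and 770 CPM in Hif1a KO, against 967, 871 and 787 CPM in Hif1a flox, with every KO library lower (-0.19 ± 0.18, adjusted p = 0.461). It had 927, 668 and 755 CPM in Hif1a Ahr KO, against 1344, 945 and 954 CPM in Hif1a Ahr flox, again with every KO library lower (-0.47 ± 0.18, adjusted p = 0.0622). This last difference passed under DESeq2 (adjusted p = 0.0269) and without Hif1a Ahr KO replicate 1 (-0.60). Both separations of mt-Rnr1 hold for the TMM-scaled values only. Unscaled counts overlapped, at 43560 to 44700 in Hif1a KO and 41620 to 51060 in Hif1a flox. They also overlapped at 37660 to 51670 in Hif1a Ahr KO and 50360 to 74820 in Hif1a Ahr flox. mt-Rnr2 had 1576, 1471 and 1802 CPM in Hif1a KO, against 1482, 1435 and 1118 CPM in Hif1a flox (0.27 ± 0.15, adjusted p = 0.191). In Ahr KO mt-Rnr2 had 1148, 1052 and 1071 CPM, against 1274, 1208 and 1524 CPM in Ahr flox, every KO library lower (-0.29 ± 0.15, adjusted p = 0.293). Every KO library lay below every flox library for 25.1% of all tested genes with Hif1a deleted, 15.3% with Ahr deleted and 19.6% with both deleted. None of the 6 tests of a ribosomal gene passed in the edgeR fit, and limma voom called 0 as well; at an unadjusted p under 0.05 there was 1, mt-Rnr1 in Hif1a Ahr KO.

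Ratios within a library do not depend on the scaling between libraries, and they set the classes apart. Ribosomal counts were 0.0799 to 0.0818 times the protein-coding counts in Hif1a KO and 0.112 to 0.147 times in Hif1a flox. They were 0.0569 to 0.0943 times in Hif1a Ahr KO and 0.128 to 0.184 times in Hif1a Ahr flox, without overlap in either line. With Ahr deleted they were 0.0619 to 0.107 times in Ahr KO and 0.0928 to 0.145 times in Ahr flox, with overlap. With the nuclear copies counted as protein-coding, the ranges were 0.0588 to 0.0627 in Hif1a KO and 0.0872 to 0.118 in Hif1a flox. The mt-Rnr2 to mt-Rnr1 ratio was 2.04, 1.93 and 2.34 in Hif1a KO, against 1.53, 1.65 and 1.42 in Hif1a flox. It was 2.29, 2.47 and 2.02 in Hif1a Ahr KO, against 1.47, 1.5 and 1.44 in Hif1a Ahr flox. The Ahr groups stood at 1.24, 1.78 and 1.64 in Ahr KO and 1.14, 1.55 and 1.65 in Ahr flox. The large ribosomal RNA thus had more counts relative to the small one in every KO library of both lines with floxed Hif1a, and the Ahr groups overlapped. These are counts in mRNA libraries, and the part of RNA selection in the ribosomal shares and ratios was not tested.

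The ends of the heavy strand were compared in the same way. The mt-Cytb to mt-Nd1 ratio, between its last and first protein-coding genes, was 0.818, 0.684 and 0.739 in Hif1a KO, against 0.583, 0.4999 and 0.573 in Hif1a flox. It was 0.669, 0.994 and 0.887 in Hif1a Ahr KO, against 0.422, 0.493 and 0.459 in Hif1a Ahr flox. The ratios were 0.656, 0.732 and 0.675 in Ahr KO, against 0.556, 0.623 and 0.496 in Ahr flox, so that all 3 lines had every KO library above every flox library. Over the 12 heavy-strand protein-coding genes, position along the genome and fold change had a Spearman rho of 0.55 for Hif1a KO, 0.57 for Ahr KO and 0.45 for Hif1a Ahr KO. These are descriptions over 12 genes of the same libraries, in which genes with copies and genes that overlap are not independent. With the copies counted in, rho was 0.57, 0.52 and 0.49. The ratio also rests on mt-Cytb, which without copies had the largest change in both Hif1a-deleted lines. Changes of the genes between did not climb steadily: in Hif1a KO they were 0.85 for mt-Atp8, 0.57 for mt-Nd3 and 0.72 for mt-Nd5.

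**Figure D3:**
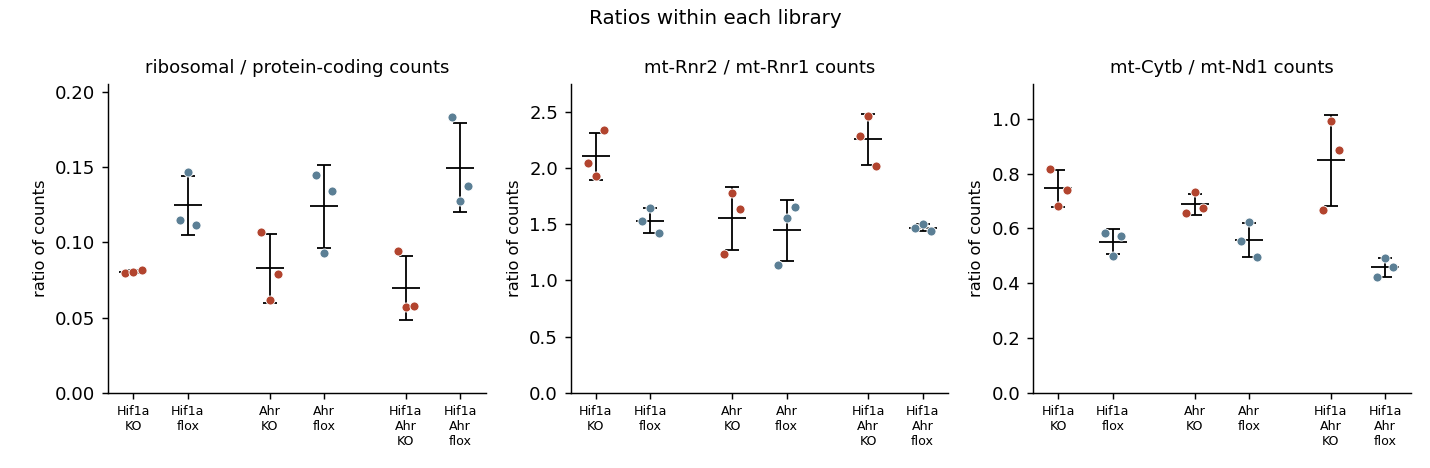
Ratios of counts within each library: ribosomal over protein-coding, mt-Rnr2 over mt-Rnr1, and mt-Cytb over mt-Nd1; points are libraries, the dash and bar are the mean and SD of 3. The mt-Rnr2 to mt-Rnr1 ratio was 1.93 or more in Hif1a KO and 2.02 or more in Hif1a Ahr KO, against at most 1.65 in the flox libraries, and the mt-Cytb to mt-Nd1 ratio was higher in KO than in flox in all 3 lines.

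All 22 transfer RNA genes had a count in at least 1 library, and 9 had under 10 counts over the 18 libraries. Only mt-Tp, mt-Tl1 and mt-Tc passed the filter on low counts, and they held 75.7% of all transfer RNA counts. mt-Tp had 70, 44 and 52 counts in Hif1a KO, against 23, 31 and 23 in Hif1a flox, and rose by 1.01 ± 0.28 (adjusted p = 0.0081). It had 75, 81 and 64 counts in Hif1a Ahr KO, against 34, 22 and 30 in Hif1a Ahr flox, and rose by 1.31 ± 0.27 (adjusted p = 0.0012). mt-Tp is encoded on the light strand. mt-Tl1, which follows mt-Rnr2 directly, had 26, 29 and 32 counts in Hif1a KO, against 14, 17 and 4 in Hif1a flox, and rose by 1.21 ± 0.38 (adjusted p = 0.0185). It had 30, 31 and 21 counts in Hif1a Ahr KO, against 14, 9 and 7 in Hif1a Ahr flox, and rose by 1.40 ± 0.39 (adjusted p = 0.0107). mt-Tc had 23, 19 and 16 counts in Hif1a KO, against 3, 11 and 5 in Hif1a flox, and rose by 1.49 ± 0.45 (adjusted p = 0.0145), while its difference of 0.89 ± 0.43 in Hif1a Ahr KO missed the threshold (adjusted p = 0.127). None of the 3 was called in Ahr KO, also at an unadjusted p under 0.05 and by DESeq2 or limma voom. In the Hif1a comparison only 1 of the 3 was called without Hif1a flox replicate 3 or without Hif1a KO replicate 1.

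The other 19 transfer RNAs had between 1 count (mt-Td and mt-Tl2) and 82 counts (mt-Tw) over all 18 libraries. mt-Ta had 6, 2 and 5 counts in Hif1a KO and 0 in each Hif1a flox library. mt-Tw had 8, 10 and 7 counts in Hif1a KO, against 7, 0 and 3 in Hif1a flox, and the groups met at 7. Over all 22 genes, each KO library exceeded each flox library in 6 genes for Hif1a, 1 for Ahr and 3 for Hif1a Ahr, beside 24.8%, 13.8% and 17.6% of all tested genes. Those shares cover genes that passed the filter, which these 19 did not, many with 0 counts in a library. They are not a matched background for the transfer RNAs, and no excess is read from these counts. Counts this low do not carry a fold change. Of 12 RNAs without a poly(A) tail that were listed and found, only Rny1 and Rpph1, the RNA of nuclear RNase P, passed the filter. Rny1 was not called in any line, and Rpph1 rose by 2.59 ± 0.65 in Hif1a KO (adjusted p = 0.0054) and by 2.72 ± 0.62 in Hif1a Ahr KO (adjusted p = 0.0035). The summed level of the list was 0.73 to 2.72 CPM in Hif1a KO and 0.25 to 0.76 CPM in Hif1a flox, 2.04 to 2.22 CPM in Hif1a Ahr KO and 0.37 to 0.89 CPM in Hif1a Ahr flox, and 0.31 to 0.40 CPM in Ahr KO and 0.22 to 0.53 CPM in Ahr flox. These sums overlapped in the Hif1a and Ahr lines and not in the Hif1a Ahr line. Of 61 tested histone genes, whose replication-dependent messengers also lack the tail, 1 rose and 5 fell in Hif1a KO, 0 changed in Ahr KO, and 1 rose and 4 fell in Hif1a Ahr KO. These shares lie below those of all genes, 17.6% higher and 17.8% lower in Hif1a KO and 14.8% higher and 16.5% lower in Hif1a Ahr KO. The part of RNA selection in the transfer RNA result was not tested.

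The effects of the 3 deletions were set against each other with interaction tests. In the Hif1a Ahr line the effect exceeded that of the Ahr line for 6 of 13 protein-coding genes and 1 of 3 transfer RNAs, where 8.59% of all genes tested had a higher effect. The genes were mt-Cytb with a difference of 1.18 ± 0.30 (adjusted p = 0.0142), mt-Atp6 with 0.95 ± 0.22, mt-Co3 with 0.89 ± 0.22, mt-Co1 and mt-Co2 with 0.83 each, mt-Nd1 with 0.59 ± 0.20 and mt-Tp with 1.33 ± 0.38. The call of mt-Tp was lost without any 1 of 5 libraries, namely Hif1a Ahr flox replicate 2, Hif1a Ahr KO replicate 2, Ahr flox replicate 3 and Ahr KO replicates 1 and 2. The Hif1a KO effect exceeded the Ahr KO effect in 1 gene, mt-Co2 (0.56 ± 0.19, adjusted p = 0.0318), where 16.6% of all genes did, and that count ran from 0 to 5 when single libraries were left out. It was 0 without replicate 1 of Ahr KO, replicate 2 of Ahr flox, replicate 3 of Hif1a KO or replicate 2 of Hif1a flox, and 4 or 5 without replicate 1 of Hif1a Ahr KO, of Ahr flox or of Hif1a flox or replicate 2 of Ahr KO. With the replicate block it was 7, and 1 ribosomal gene, mt-Rnr2, and 1 transfer RNA, mt-Tp, were then called as well. Between Hif1a Ahr KO and Hif1a KO the fit called none of the 18 tested genes, where 9.63% of all genes were called. The largest difference there was 0.64 ± 0.30 for mt-Cytb (adjusted p = 0.192). At an unadjusted p under 0.05 there were 2, mt-Cytb and mt-Co1, and DESeq2 and limma voom called 0. Against the sum of the Hif1a KO and Ahr KO effects, none of the 18 departed, also at an unadjusted p under 0.05 or by DESeq2 or limma voom, where 0.0358% of all genes did.

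The flox groups carry no Cre, and of the 18 tested genes only mt-Nd3 differed between them in an F test over the 3 groups, which called 0.245% of all genes. Between Hif1a Ahr flox and Hif1a flox no mitochondrial gene was called, at an unadjusted p under 0.05 either, where 0.0239% of all genes were. Counts at mt-Nd3 were 941 to 1490 in all 6 libraries of the Ahr line, KO and flox alike, and 4672 to 12460 in the 12 libraries of the other lines. Ahr flox had 18.3, 28.3 and 21.1 CPM, against 131.0, 129.3 and 88.3 CPM in Hif1a flox, a difference of -2.37 ± 0.22 on the log2 scale (adjusted p = 4.6e-05), where 0.251% of all genes were called. Against Hif1a Ahr flox, with 159.6, 116.4 and 159.8 CPM, the difference was -2.69 ± 0.22 (adjusted p = 1.8e-05), where 0.185% of all genes were called. Leaving out single flox libraries gave -2.23 to -2.56 and -2.56 to -2.88.

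At the copy the order was the other way round. Gm28438 had 189.6, 308.2 and 273.2 CPM in Ahr KO and 169.8, 303.2 and 259.9 CPM in Ahr flox, against 181.4, 85.4 and 118.3 CPM in Hif1a flox and 98.6, 92.1 and 142.5 CPM in Hif1a Ahr flox. Of the counts at mt-Nd3 and Gm28438 together, mt-Nd3 held 7.50% to 9.72% in the 6 libraries of the Ahr line and 27.1% to 61.8% in the other 12. With the copy counted in, the flox differences were 0.13 ± 0.23 (adjusted p = 0.943) and 0.06 ± 0.23 (adjusted p = 0.965), and no protein-coding gene differed between the flox groups. The counts hold no base calls, so which base stood at position 3 in the reads of each line was not tested here.

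**Figure D4:**
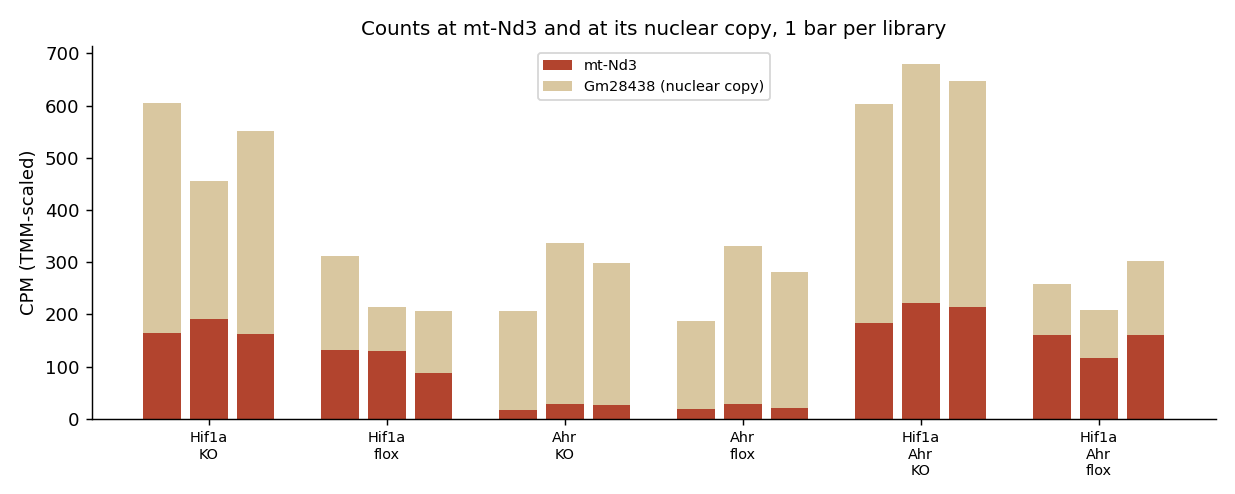
TMM-scaled CPM at mt-Nd3 (red, lower part) and at its nuclear copy Gm28438 (tan, upper part), stacked, 1 bar per library. In the Ahr line mt-Nd3 held 7.50% to 9.72% of the stack and elsewhere 27.1% to 61.8%, while the stacks of the 3 flox groups overlapped in height, 188.0 to 331.5 CPM in Ahr flox, 206.6 to 312.4 CPM in Hif1a flox and 208.4 to 302.3 CPM in Hif1a Ahr flox.

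The split at mt-Nd3 also differed between KO and flox where Hif1a was deleted. mt-Nd3 held 27.1%, 42.0% and 29.5% of the shared counts in Hif1a KO, against 41.9%, 60.2% and 42.7% in Hif1a flox, and 30.2%, 32.5% and 32.9% in Hif1a Ahr KO, against 61.8%, 55.8% and 52.9% in Hif1a Ahr flox. The Hif1a groups met at 42.0% and 41.9%, and the Hif1a Ahr groups did not overlap. Alone, mt-Nd3 rose by 0.57 ± 0.21 in Hif1a KO (adjusted p = 0.0441) and differed by 0.50 ± 0.21 in Hif1a Ahr KO (adjusted p = 0.0799). Together with Gm28438 it rose by 1.14 ± 0.23 (adjusted p = 0.0015) and 1.33 ± 0.23 (adjusted p = 5.8e-04), with 605.1, 455.4 and 551.7 CPM in Hif1a KO, against 312.4, 214.6 and 206.6 CPM in Hif1a flox. In Ahr KO the sum differed by 0.07 ± 0.23 (adjusted p = 0.905). The single missing call among the 13 genes of the Hif1a Ahr line was therefore a call when the copy was added.

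Of the 12 copies, 7 passed the filter on low counts, and 5 of these rose in Hif1a KO and in Hif1a Ahr KO, where 17.6% and 14.8% of all genes tested did. Reads of Gm28661, Gm28437 and Gm28438 can hardly be told from those of mt-Co2, mt-Co3 and mt-Nd3. The rises of these copies are therefore not separate from those of the mitochondrial genes. The 12 copies are genes that share at least 100 words of 31 bases with a mitochondrial gene. Together they held 0.82% to 1.10% of counts in Hif1a KO and 0.39% to 0.65% in Hif1a flox. They held 1.04% to 1.32% in Hif1a Ahr KO and 0.45% to 0.51% in Hif1a Ahr flox, and 0.63% to 0.76% in Ahr KO and 0.54% to 0.64% in Ahr flox. Gm28661, the copy of mt-Co2, was the largest, with 6300, 5131 and 6100 CPM in Hif1a KO, against 3826, 2489 and 2869 CPM in Hif1a flox, and mt-Co2 held only 15.2% to 24.4% of the counts at both. Gm28661, Gm28437 and Gm28438 rose in Hif1a KO by 0.93, 0.97 and 1.51 and in Hif1a Ahr KO by 1.31, 1.55 and 1.98, and none was called in Ahr KO. Gm10925 and Gm29216 were not called in any line, and between replicates they varied several-fold: Gm10925 had 525, 128 and 160 CPM in Hif1a KO and 481, 65.2 and 174 CPM in Hif1a flox. With each copy added to its gene, the protein-coding share was 3.79% to 4.26% in Hif1a KO and 1.97% to 2.70% in Hif1a flox, and 4.30% to 5.46% in Hif1a Ahr KO and 2.13% to 2.30% in Hif1a Ahr flox. All 13 genes were then called higher in both comparisons. With copies, mt-Co2 rose by 0.88 ± 0.13 in Hif1a KO and 1.23 ± 0.13 in Hif1a Ahr KO, and mt-Co3 by 0.90 ± 0.15 and 1.33 ± 0.16. The corresponding changes were 0.67 ± 0.13 and 1.01 ± 0.13 for mt-Co1 and 0.74 ± 0.18 and 1.27 ± 0.18 for mt-Atp6, so mt-Co2 and mt-Co3 had larger changes with their copies than alone.

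Levels per length depend on the same split. Without the copies mt-Co1 averaged 7173 CPM per kilobase over the 18 libraries (4746 to 11800), ahead of mt-Nd1 with 2665, mt-Co3 with 2543, mt-Atp6 with 2278 and mt-Co2 with 1513. With them, mt-Co2 stood at 10420 ± 1061 CPM per kilobase in Hif1a KO and 5668 ± 997 in Hif1a flox (SD, n = 3 each). mt-Co1 stood at 9072 ± 699 in Hif1a KO and 5701 ± 812 in Hif1a flox, so these neighbours in the order differed by less than their spread in Hif1a flox. mt-Rnr1 and mt-Rnr2, with 902 and 920 CPM per kilobase without copies, lay near each other and near mt-Nd4 with 976.

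Nuclear genes that serve mitochondrial gene expression were counted in 5 lists, beside the shares of all genes called: 17.6% higher and 17.8% lower in Hif1a KO, 2.14% and 4.78% in Ahr KO, and 14.8% and 16.5% in Hif1a Ahr KO. Of 19 genes for mtDNA transcription and its regulators, 3 rose and 3 fell in Hif1a KO, 0 and 0 changed in Ahr KO, and 4 rose and 4 fell in Hif1a Ahr KO, with medians of 0.05, 0.04 and 0.01. In Hif1a KO these counts lie near the background. Polrmt, the mitochondrial RNA polymerase, had 22.9 ± 1.44 CPM in Hif1a KO and 22.8 ± 0.94 CPM in Hif1a flox, and 24.1 ± 1.18 CPM in Hif1a Ahr KO and 24.0 ± 3.2 CPM in Hif1a Ahr flox. Tfam, the protein that packs mtDNA and opens its promoters, had 69.9 ± 1.42 CPM in Hif1a KO and 65.6 ± 2.37 CPM in Hif1a flox, and fell by 0.17 in Hif1a Ahr KO (adjusted p = 0.0352), a call singled out after its values were seen. Ppargc1a, the coactivator of mitochondrial biogenesis, rose most, by 2.04 ± 0.29 in Hif1a KO (adjusted p = 3.0e-05) and by 2.40 ± 0.29 in Hif1a Ahr KO (adjusted p = 6.2e-06). Its level stayed low, at 1.94 ± 0.17 CPM in Hif1a KO and 0.47 ± 0.05 CPM in Hif1a flox (SD, n = 3 each). Pprc1, a related coactivator, rose by 0.48 in Hif1a Ahr KO, Mterf3, a factor that binds mtDNA, by 0.28 in Hif1a KO, and Gabpa, a regulator of nuclear genes of respiration, fell by 0.19 in Hif1a KO.

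Of 16 genes for replication and maintenance of mtDNA, 1 rose and 4 fell in Hif1a KO, 1 and 1 in Ahr KO, and 1 and 3 in Hif1a Ahr KO, again beside 17.6% and 17.8%, 2.14% and 4.78%, and 14.8% and 16.5% of all genes. Polg, the catalytic subunit of the mtDNA polymerase, rose by 0.34 in Ahr KO (adjusted p = 0.0211) and by 0.63 in Hif1a Ahr KO (adjusted p = 1.7e-05), and had 20.1 ± 2.14 CPM in Hif1a KO and 22.5 ± 0.87 CPM in Hif1a flox. Endog, a mitochondrial nuclease, fell by 1.11 in Hif1a KO, and Slc25a36, a carrier of pyrimidine nucleotides, by 0.47. Of 31 genes for processing, stability and decay of mitochondrial RNA, 1 rose and 7 fell in Hif1a KO, 0 and 0 changed in Ahr KO, and 3 rose and 1 fell in Hif1a Ahr KO. In Hif1a KO the 7 that fell are a share near the 17.8% of all genes, and the 1 that rose is below the 17.6%. Among the genes that fell in Hif1a KO were Fastk by 0.33 (adjusted p = 9.2e-04), Tbrg4 by 0.27 and Supv3l1, a helicase of mitochondrial RNA decay, by 0.27. Rexo2, an exonuclease for very short RNAs, rose by 0.28 in Hif1a KO and by 0.33 in Hif1a Ahr KO. Lrpprc, which binds and protects mitochondrial messengers, had 82.6 ± 3.52 CPM in Hif1a KO and 85.1 ± 3.91 CPM in Hif1a flox and was not called in any line.

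Genes for mitochondrial ribosomal proteins were taken by the symbol prefixes Mrpl and Mrps alone, whatever protein each encodes. Of these 78 genes, 2 rose and 12 fell in Hif1a KO, 1 rose in Ahr KO, and 3 rose and 17 fell in Hif1a Ahr KO. The medians were -0.05 in Hif1a KO and -0.09 in Hif1a Ahr KO. Mrpl54 was among the strongest calls, with -0.44 in Hif1a KO and -0.62 in Hif1a Ahr KO. Of 21 tested genes that charge mitochondrial transfer RNAs, 6 rose and 3 fell in Hif1a KO, 0 changed in Ahr KO, and 5 rose in Hif1a Ahr KO. Mars2, for methionine, rose by 0.45 in Hif1a KO and by 0.54 in Hif1a Ahr KO. These shares of 78 and of 21 genes stand beside the 17.6% higher and 17.8% lower over all genes in Hif1a KO and the 14.8% higher and 16.5% lower in Hif1a Ahr KO.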

How the data were processed

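RNA of cultured NK cells was sequenced in 18 libraries. Per the submitters' processing notes, Trim Galore 0.6.4, kallisto 0.4.6, edgeR and GRCm39 were used; settings and annotation were not given in the sources used here. The deposited expected counts are kallisto's estimates per gene and are not normalised: 65.5% to 67.8% of values above 0 were not whole. The deposited log2 CPM values equal edgeR's own (prior count 2) to within 7.1e-15 and were not used further. Symbols matched 52029 of 56953 identifiers, and the rest held 0.315% of counts.

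The counts were tested unrounded with edgeR 4.0.16 in R 4.3.3: TMM scaling, filterByExpr (16747 genes), 1 mean per group over all libraries, and robust quasi-likelihood F tests, 2-sided, adjusted by Benjamini-Hochberg over all genes. The common coefficient of biological variation was 0.117, with 12 residual degrees of freedom. DESeq2 1.42.0 ran on rounded counts and limma 3.58.1 (voom) on the counts as an alternative. In simulated counts for Hif1a KO against Hif1a flox, over 16437 genes, the test recovered 61 of 100 genes changed by 0.5 on the log2 scale and 82 of 100 changed by 1, with 6 false calls. No other genes were changed there, while the real comparison called 17.6% higher and 17.8% lower. The adjustment depends on that share, so these rates need not hold for the real fit. Replicates differed by 16.3 to 68.1 times counting error (chi-square per degree of freedom). Shares, ratios and lists got no test. p-values measure the spread between these biological replicates.

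The labels state no pairing of KO and flox libraries. Replicate numbers were taken to pair them by a rule applied to these same counts, a correlation above 0.1 in every pair. It was 0.33, 0.54 and 0.30 in the Hif1a line and 0.52, 0.44 and 0.49 in the Ahr line. In the Hif1a Ahr line, which did not meet the rule, it was 0.08, 0.46 and 0.29. Libraries of unlike number were not correlated, so the rule does not establish that the numbers pair. The members, gene lists and comparisons were chosen with earlier results of these data known. All mt- genes could be named, and of each list and comparison up to 4 called genes by adjusted p, members that were not called, and nuclear copies by level. Nuclear copies were defined after seeing the data, as genes sharing at least 100 words of 31 bases with a member. Sequences, lengths and gene order come from GENCODE M21, made on GRCm38 and not on the authors' build, so no coordinates are given.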

Additional observations from a re-analysis of the deposited data

Results flagged for a closer look

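A total of 10 results met a rule for differences between groups. The level of mt-Nd3 differed between flox groups that carry no Cre: the log2 difference was -2.37 for Ahr flox against Hif1a flox and -2.69 for Ahr flox against Hif1a Ahr flox, and it was 0.13 and 0.06 with the nuclear copy Gm28438 counted in. The effect of deletion in the Hif1a Ahr line exceeded that in the Ahr line, by the interaction test, by 0.59 for mt-Nd1, 0.83 for mt-Co1, 0.83 for mt-Co2, 0.95 for mt-Atp6, 0.89 for mt-Co3, 1.18 for mt-Cytb and 1.33 for mt-Tp on the log2 scale. The effect in the Hif1a line exceeded that in the Ahr line by 0.56 for mt-Co2. Groups of 3 libraries are too small for a test of single outlying libraries.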

How the results depend on the processing

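Of 42 summary results (counts of called genes per class and comparison, and ratios of shares), 16 moved under at least 1 of 13 other settings or when single libraries were left out. Leaving out 1 library gave 7 to 12 protein-coding and 1 to 3 transfer RNA calls in Hif1a KO, 0 to 1 ribosomal calls in Hif1a Ahr KO, 0 to 5 protein-coding, 0 to 1 ribosomal and 0 to 1 transfer RNA calls for the Hif1a effect minus the Ahr effect, and 0 to 1 ribosomal and 0 to 1 transfer RNA calls for the Hif1a Ahr effect minus the Ahr effect. A filter of at least 1 CPM in 3 libraries left 1 transfer RNA call in Hif1a KO and 1 in Hif1a Ahr KO, since fewer of these genes were tested. With the replicate number as a block there were 3 protein-coding and 1 ribosomal calls in Ahr KO, 1 ribosomal call in Hif1a Ahr KO, 7 protein-coding, 1 ribosomal and 1 transfer RNA calls for the Hif1a effect minus the Ahr effect, and 1 protein-coding call for the Hif1a Ahr effect minus the Hif1a effect; it moved no other count by over 1.5 times. In the Hif1a Ahr line, which did not meet the pairing rule, the block gave -0.46 for mt-Rnr1 (adjusted p = 2.5e-04) and 0.51 for mt-Nd3 (0.0195). Against the Hif1a effect it gave 0.60 for mt-Cytb (0.0098). These are edgeR values from libraries known to share only a number. For the Hif1a effect minus the Ahr effect, library size alone gave 6 protein-coding, 1 ribosomal and 1 transfer RNA calls, no filter on low counts gave 0, DESeq2 gave 4 protein-coding and 1 ribosomal, and adding the nuclear copies, an alternative chosen after seeing the data, gave 2. DESeq2 called 1 ribosomal gene in Hif1a Ahr KO, and no filter left 3 protein-coding calls for the Hif1a Ahr effect minus the Ahr effect. The cause of these moves was not tested. With the copies added, the calls between Ahr flox and Hif1a flox, between Ahr flox and Hif1a Ahr flox and over the 3 flox groups were 0, and mt-Nd3 changed sign to 0.13 and 0.06.

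Values that were not called and changed sign lay near 0: in Ahr KO, mt-Nd6 was at -0.01 under library size alone, and leaving out 1 library gave -0.02 to 0.28 for mt-Nd2, -0.01 to 0.31 for mt-Co2, -0.08 to 0.28 for mt-Nd3, -0.07 to 0.16 for mt-Nd6 and -0.38 to 0.17 for mt-Tp. In Hif1a Ahr KO it gave 0.00 to 0.34 for mt-Rnr2. With 3 libraries per group and up to 81 counts at a transfer RNA, depth limits the transfer RNAs, while replicate spread limits the other classes.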
